A study of Mus musculus with 15 samples.

Results

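Germ cell RNA-binding proteins were represented by 10 genes, *Dazl*, *Ddx4*, *Rbm46*, *Nanos1*, *Nanos2*, *Boll*, *Elavl2*, *Tex14*, *Pum2* and *Ddx25*, which were followed through the induction of primordial germ cell-like cells (PGCLCs). They were chosen by name with earlier results of these data known, though not by a rule on their values, and make up 10 of the 55536 genes counted. On day 6 of induction, 5 of the 9 that could be tested were called higher than in embryonic stem cells (ESCs) at an adjusted p under 0.05 and a difference past 1 on the log2 scale, and 0 lower, where 15.8% and 10.3% of all genes tested were. Relative to epiblast-like cells (EpiLCs), 4 were called higher and 0 lower, against 15.9% and 12.0% of all genes. *Dazl* rose the most of the 9 relative to EpiLCs, 67.1-fold (95% interval 51.0 to 88.4, n = 3 per group), and went from rank 4 of the 10 genes per exon length in ESCs to rank 1 on days 4 and 6. *Ddx4* and *Rbm46* also rose, but were higher already in EpiLCs than in ESCs. *Pum2*, *Nanos1*, *Boll* and *Elavl2* did not reach the fold-change cutoff on day 6 relative to either start, and *Nanos2* was at or under 3 counts in every sample.

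Germ cells depend strongly on control of mRNAs after transcription, by proteins that bind messages and change how long they last or how well they are translated. DAZL binds and promotes translation of germ cell mRNAs, NANOS proteins act together with Pumilio proteins and the CCR4-NOT deadenylase to repress and degrade messages, and DDX4 (the vertebrate VASA) is an RNA helicase of germ granules. *Dazl* and *Ddx4* are known as genes that become strongly expressed as primordial germ cells reach and settle in the gonad, whereas *Boll*, *Nanos2*, *Ddx25* and *Tex14* are best known from the testis. TEX14 is a protein of the intercellular bridges between germ cells and is not known as an RNA binder.

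The samples were 15 bulk RNA-seq libraries from mouse cells, 3 replicates for each of 5 groups. All groups, ESCs and EpiLCs included, carried a *Stella*-eGFP reporter and 4 transgenes that respond to doxycycline (Dox), *Nanog*, *Prdm1*, *Prdm14* and *Tfap2c* (4TF), brought in by transposon and, for *Tfap2c*, by lentivirus, with integrated clones selected by drug resistance. Naive ESCs were kept in 2i and LIF, EpiLCs were taken after 48 h in Activin A, bFGF and knockout serum replacement, and Stella-eGFP+ PGCLCs were taken on days 2, 4 and 6 (D2PGCLC, D4PGCLC and D6PGCLC) after addition of 2 µg/ml Dox without added cytokines. The reporter selects cells that express *Stella* (*Dppa3*), no member of the set is a transgene, and the labels do not say whether the replicates were separate inductions, so p-values measure the spread between these samples only. Libraries held 22555021 to 42725681 counts on genes, and D6PGCLC replicate 1 had a count for 18061 genes against 21103 to 24343 in the 14 others. The summed level of 5 PGC markers was 658 to 891 CPM (counts scaled to library size) in the 9 PGCLC samples and 73.2 to 122 CPM in ESCs and EpiLCs. Most of it in PGCLCs was *Dppa3* (group means 448 to 475 CPM), so sorting by its reporter bears on this sum. That of 5 naive ESC markers was 1471 to 1495 CPM in ESCs, 238 to 264 CPM in EpiLCs and 830 to 1131 CPM in PGCLCs. It was mostly *Esrrb* and *Zfp42*, and its members went different ways. On day 2, *Klf4* and *Tbx3* (means 5.99 and 17.5 CPM) lay far below ESCs (173 and 155 CPM), while *Nr0b1* (113 CPM) lay above them (60.2 CPM). The summed level of 4 EpiLC markers was 1824 to 1966 CPM in EpiLCs and at most 142 CPM elsewhere.

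The 10 genes lie on 10 different chromosomes, and only *Nanos2* shares exonic bases with another annotated gene, 766 bases with the antisense gene *Gm45058*, which had 0 counts in every sample. RefSeq promoters, 250 bases before to 50 after an annotated start, were at hand for all 10 genes, 18 promoters in total, some of which overlap within a gene. The E2F motif TCCCGC, on either strand, stood in 11 of the 18 promoters (61.1%), which belong to 7 genes, and in 19.98% of all 32851 mouse promoters in the table. Overlapping windows of *Elavl2*, and of *Pum2*, share a site, so the same site counts more than once among the 11. The E-box CACGTG, which reads alike on both strands, stood in 4 of the 18 (22.2%), each of another gene, and in 7.15% of all promoters. Both motifs hold a CpG, and most of the 18 promoters held more CpG than the median promoter. The shares over all promoters were not matched for this. Both motifs together stood in 1 promoter each of *Ddx4*, *Rbm46* and *Ddx25*, against 1.99% of all promoters, and these 3 were the genes called higher in EpiLCs than in ESCs, a match seen after the values were known and not tested. Of the genes not called higher there, *Dazl*, *Nanos1* and *Nanos2* (not tested) had neither motif. *Elavl2*, *Tex14* and *Pum2* had the E2F motif without the E-box, and *Boll* had each motif in a different promoter. The promoters of *Ddx4*, *Rbm46*, *Ddx25* and *Dazl* are shown as examples, 5′ to 3′ along the gene, with the 2 motifs in capitals and coordinates on the GRCm38.p6 build:
Ddx4, chr13:112652261-112652560, minus strand: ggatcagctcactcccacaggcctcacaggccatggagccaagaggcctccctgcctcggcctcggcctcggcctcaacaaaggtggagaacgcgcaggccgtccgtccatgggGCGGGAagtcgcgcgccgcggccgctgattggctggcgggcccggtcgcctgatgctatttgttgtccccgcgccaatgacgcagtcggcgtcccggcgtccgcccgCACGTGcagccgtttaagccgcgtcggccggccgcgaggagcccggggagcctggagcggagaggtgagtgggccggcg
Rbm46, chr3:82876434-82876733, minus strand: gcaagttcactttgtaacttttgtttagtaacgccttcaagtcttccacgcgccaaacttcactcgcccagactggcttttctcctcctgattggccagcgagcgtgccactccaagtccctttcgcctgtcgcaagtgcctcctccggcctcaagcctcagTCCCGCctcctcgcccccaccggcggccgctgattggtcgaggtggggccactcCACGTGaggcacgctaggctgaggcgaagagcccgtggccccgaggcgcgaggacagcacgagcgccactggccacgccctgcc
Ddx25, chr9:35558421-35558720, minus strand: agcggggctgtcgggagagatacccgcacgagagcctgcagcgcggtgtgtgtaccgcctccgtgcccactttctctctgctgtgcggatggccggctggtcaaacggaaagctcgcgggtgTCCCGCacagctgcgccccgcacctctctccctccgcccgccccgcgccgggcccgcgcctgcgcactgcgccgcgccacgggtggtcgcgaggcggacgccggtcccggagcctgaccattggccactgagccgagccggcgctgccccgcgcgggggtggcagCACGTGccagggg
Dazl, chr17:50293571-50293870, minus strand: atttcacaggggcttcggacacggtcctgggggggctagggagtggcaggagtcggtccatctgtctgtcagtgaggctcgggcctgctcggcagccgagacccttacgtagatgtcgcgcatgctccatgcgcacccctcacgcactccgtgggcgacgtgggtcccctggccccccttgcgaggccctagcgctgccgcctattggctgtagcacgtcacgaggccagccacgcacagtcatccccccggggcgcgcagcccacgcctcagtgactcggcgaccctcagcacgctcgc
The E2F motif began 136 bases before the start in *Ddx4*, 88 bases before it in *Rbm46* and 128 bases before it in *Ddx25*. The E-box began 29 and 34 bases before the start in *Ddx4* and *Rbm46* and 37 bases after it in *Ddx25*. The 4 promoters held 38, 25, 41 and 28 CpG dinucleotides, respectively, where the median over all promoters was 7 and the upper quartile 20, and the *Nanos2* promoter held 0. A motif match describes the letters of the window only, and no binding or methylation was measured here.

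**Figure D1:**
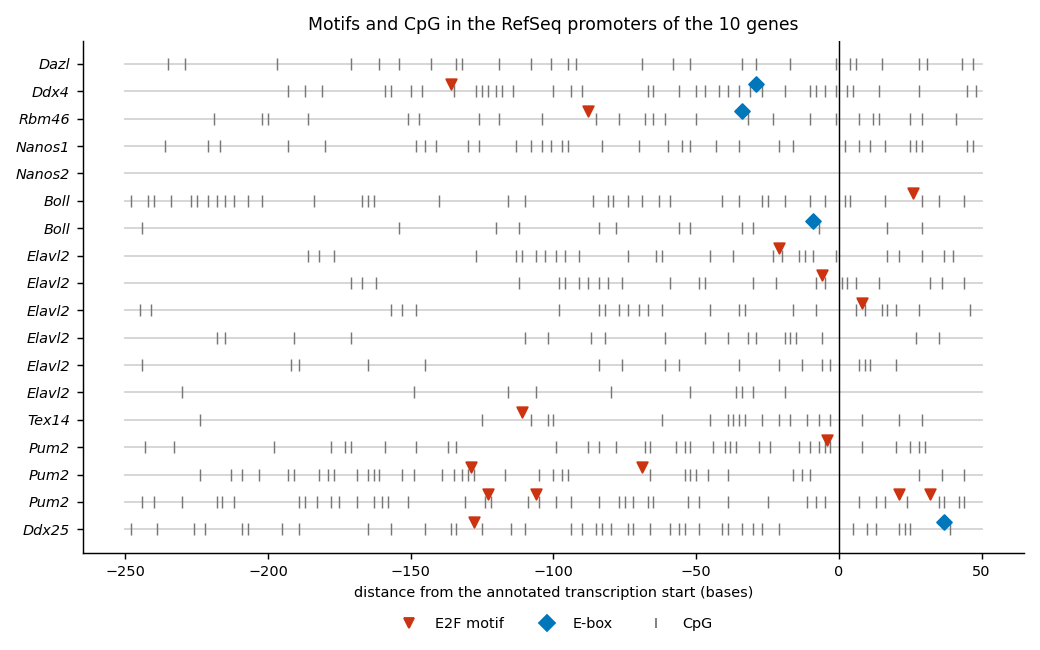
Map of the 18 RefSeq promoters of the 10 genes, drawn to scale from 250 bases before to 50 bases after the annotated start (x axis, bases). Triangles mark the E2F motif, diamonds the E-box and ticks CpG dinucleotides. *Ddx4*, *Rbm46* and *Ddx25* each have both motifs in 1 promoter, *Dazl*, *Nanos1* and *Nanos2* have neither, and *Nanos2* has no CpG.

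The DAZ family is represented by *Dazl* and *Boll* (*Boule*), which encode related RNA-binding proteins. *Dazl* had 11.0, 12.8 and 9.41 CPM in the 3 ESC samples and 6.28, 6.31 and 6.53 CPM in EpiLCs. It had 44.0, 28.1 and 45.2 CPM in D2PGCLCs, 211, 137 and 211 CPM in D4PGCLCs, and 460, 360 and 464 CPM in D6PGCLCs. No 2 groups overlapped, with EpiLCs lowest, ESCs next and each day of PGCLCs above the one before. Relative to EpiLCs, *Dazl* rose 6.14-fold by day 2 (log2 fold change 2.62, SE 0.19, edgeR adjusted p = 2.21e-09). It rose a further 4.75-fold from day 2 to day 4 (2.25, SE 0.17, adjusted p = 9.17e-07) and 2.30-fold from day 4 to day 6 (1.20, SE 0.17, adjusted p = 0.000169). On day 6 it was 38.8-fold above ESCs (95% interval 29.9 to 50.4). The difference between EpiLCs and ESCs was smaller than the cutoff (log2 fold change -0.79, SE 0.20, adjusted p = 0.003). Replicate 2 had the lowest *Dazl* level on each of the 3 days, and also the lowest *Tex14* and *Ddx25* levels. With any 1 of the 15 samples left out, the log2 fold change of *Dazl* stayed between 6.01 and 6.18 relative to EpiLCs on day 6, and between 1.02 and 1.31 from day 4 to day 6. *Boll* was near the lower end of what was counted, with 13 to 64 counts and 0.47 to 2.10 CPM over all 15 samples, and its groups overlapped. None of its 6 comparisons passed the test, and its intervals were wide, from -1.17 to 0.78 for the log2 fold change between D6PGCLCs and EpiLCs.

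**Figure D2:**
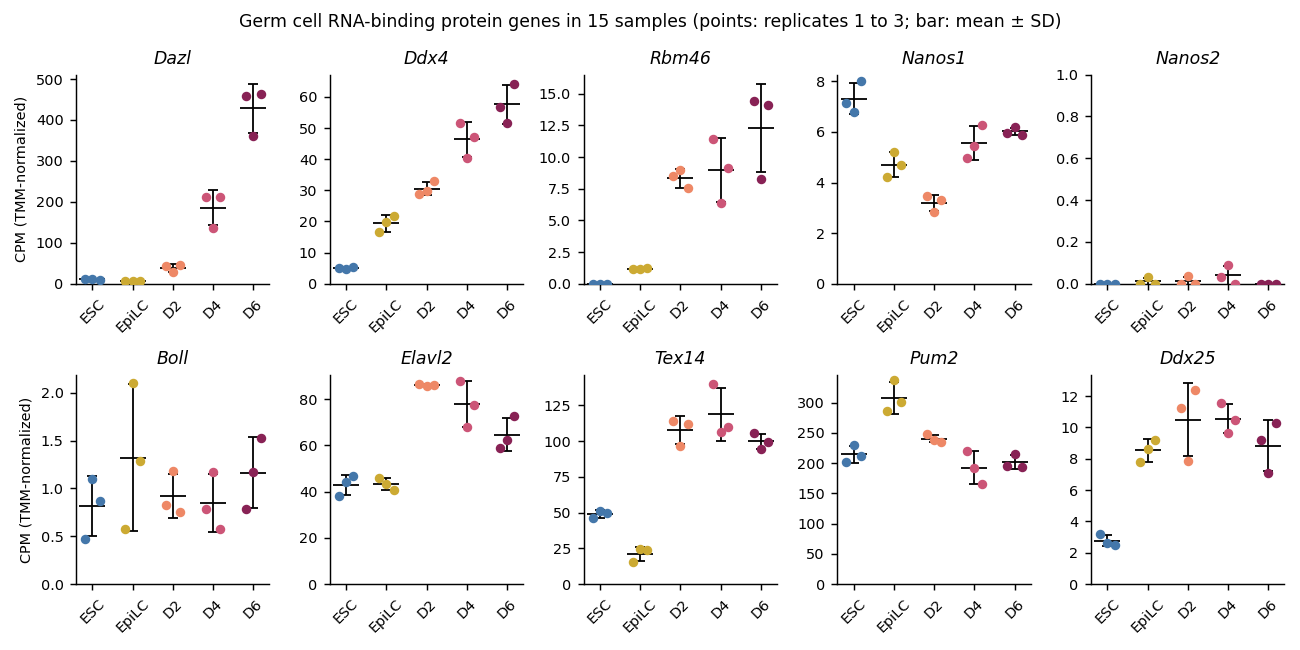
Expression of the 10 genes in each of the 15 samples, in TMM-normalized CPM on linear y axes that start at 0 and differ between genes, by group on the x axis (points, replicates 1 to 3; bars, mean and SD, n = 3). *Dazl* and *Ddx4* step up group by group from EpiLCs to day 6 without overlap, *Rbm46* and *Tex14* step up by day 2 and then overlap between days 2 and 6, and *Nanos2* stays under 0.1 CPM.

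*Ddx4* and *Ddx25* encode DEAD-box RNA helicases, the latter (gonadotropin-regulated testicular RNA helicase) known from spermatids. *Ddx4* had 5.14, 4.87 and 5.43 CPM in ESCs, 16.5, 20.0 and 21.8 CPM in EpiLCs, 28.9, 29.7 and 33.1 CPM in D2PGCLCs, 51.6, 40.4 and 47.0 CPM in D4PGCLCs, and 56.7, 51.7 and 64.2 CPM in D6PGCLCs. The groups followed each other without overlap, although the lowest D6PGCLC sample lay only just above the highest D4PGCLC sample. The largest of the 4 steps was that from ESCs to EpiLCs, 3.76-fold (log2 fold change 1.91, SE 0.13, adjusted p = 7.88e-10). The later steps were under the cutoff, with log2 fold changes of 0.65 (SE 0.12, adjusted p = 0.000155) from EpiLCs to day 2, 0.60 (SE 0.12, adjusted p = 0.00295) to day 4 and 0.31 (SE 0.12, adjusted p = 0.0852) to day 6. They added up to a 2.96-fold difference between D6PGCLCs and EpiLCs (95% interval 2.49 to 3.52), and D6PGCLCs were 11.2-fold above ESCs (9.23 to 13.5). *Ddx25* had 3.17, 2.63 and 2.51 CPM in ESCs and 7.77, 8.65 and 9.17 CPM in EpiLCs, a 3.07-fold rise (log2 fold change 1.62, SE 0.20, adjusted p = 1.42e-06). It then stayed between 7.07 and 12.4 CPM in the 9 PGCLC samples, which overlapped with EpiLCs on days 2 and 6 and lay above them on day 4, and its log2 fold change between D6PGCLCs and EpiLCs was 0.05 (95% interval -0.33 to 0.43). Of 6 spermatid markers, 4, among them the protamine genes *Prm1* and *Prm2*, had 0 counts in every D6PGCLC sample, and the 6 together had at most 0.482 CPM in any sample.

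*Rbm46* encodes an RNA-binding protein that works with MEIOC and the helicase YTHDC2 in the entry of germ cells into meiosis. It had 0 counts in all 3 ESC samples and 1.15, 1.18 and 1.21 CPM in EpiLCs. It had 8.49, 8.99 and 7.53 CPM in D2PGCLCs, 11.4, 6.39 and 9.11 CPM in D4PGCLCs, and 14.5, 8.28 and 14.1 CPM in D6PGCLCs. The gene was thus detected in each EpiLC sample and rose 7.04-fold by day 2 (log2 fold change 2.81, SE 0.27, adjusted p = 1.68e-07), while the 3 days of PGCLCs overlapped with each other and none of the later steps passed the test. Against a floor of 3 counts in each ESC sample, EpiLCs were at least 10.4-fold and D6PGCLCs at least 108-fold higher. *Meioc* had 1.17 to 1.78 CPM in ESCs, 10.8 to 22.5 CPM in EpiLCs, 7.88 to 9.04 CPM in D2PGCLCs and 17.2 to 23.4 CPM in D6PGCLCs. It therefore rose between ESCs and EpiLCs (log2 fold change 3.50, SE 0.25, adjusted p = 9.01e-10), fell by 1.03 on the log2 scale by day 2, and differed by 0.28 (SE 0.20, adjusted p = 0.255) between D6PGCLCs and EpiLCs. *Ythdc2* stayed between 18.1 and 42.7 CPM in all 15 samples and was not called on day 6 relative to either start.

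NANOS proteins are zinc-finger partners of Pumilio, whose gene *Pum2* encodes a sequence-specific repressor of mRNAs that is expressed in many cell types. *Nanos1* had 7.15, 6.79 and 8.01 CPM in ESCs, 4.21, 5.20 and 4.70 CPM in EpiLCs, 3.46, 2.83 and 3.30 CPM in D2PGCLCs, 4.97, 5.45 and 6.27 CPM in D4PGCLCs, and 5.96, 6.19 and 5.90 CPM in D6PGCLCs. D2PGCLCs were lowest and did not overlap with any other group, 2.29-fold below ESCs (log2 fold change -1.19, SE 0.17, adjusted p = 1.22e-05). From day 2 to day 4 the log2 fold change was 0.80 (SE 0.17, adjusted p = 0.0056), under the cutoff, and on day 6 it was -0.28 (SE 0.17, adjusted p = 0.159) relative to ESCs. *Nanos2*, a gene of male germ cells after sex determination and of spermatogonial stem cells, had 6 counts in all, spread over 4 of 15 samples, with at most 3 in any. It did not pass the filter on low counts and was not tested, and a count of 0 allows a level of up to 0.0661 to 0.132 CPM, depending on the library. *Nanos3*, the family member of early primordial germ cells, had 2.52 to 3.65 CPM in ESCs, 0.765 to 1.64 CPM in EpiLCs, 13.5 to 16.3 CPM in D2PGCLCs, 11.9 to 21.0 CPM in D4PGCLCs and 6.10 to 9.75 CPM in D6PGCLCs. It rose by 3.55 on the log2 scale from EpiLCs to day 2 and was still 2.53 (SE 0.28, adjusted p = 3.74e-07) above EpiLCs on day 6. From day 4 to day 6 it was called lower (log2 fold change -1.24, SE 0.24, adjusted p = 0.00246).

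*Pum2* had 202, 230 and 212 CPM in ESCs and 286, 338 and 301 CPM in EpiLCs. It had 248, 239 and 236 CPM in D2PGCLCs, 220, 191 and 166 CPM in D4PGCLCs, and 196, 216 and 194 CPM in D6PGCLCs. EpiLCs lay above every other group, while D6PGCLCs overlapped with ESCs and D4PGCLCs. None of its log2 fold changes reached the cutoff, the largest of the 6 being -0.61 (SE 0.09, adjusted p = 2.02e-05) between D6PGCLCs and EpiLCs.

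*Elavl2* (*HuB*) belongs to a family of proteins that bind AU-rich elements and is known from neurons and the gonad. It had 38.2, 44.1 and 46.8 CPM in ESCs, 46.1, 43.1 and 40.9 CPM in EpiLCs, 86.7, 86.0 and 86.1 CPM in D2PGCLCs, 88.1, 68.1 and 77.3 CPM in D4PGCLCs, and 58.9, 62.5 and 72.7 CPM in D6PGCLCs. Every PGCLC sample lay above every ESC and EpiLC sample, and D6PGCLCs overlapped with D4PGCLCs but not with D2PGCLCs. The difference between day 2 and EpiLCs lay at the edge of the cutoff, with a log2 fold change of 0.99 (95% interval 0.77 to 1.21, adjusted p = 2.3e-07), and was not called. It was 1.04 without EpiLC replicate 1, 1.00 without D2PGCLC replicate 2 and 1.01 without the filter on low counts, each of which called it. Relative to ESCs the same day was just past the cutoff, at 1.00 (SE 0.10, adjusted p = 2.07e-07), and on day 6 *Elavl2* was 0.59 (SE 0.10, adjusted p = 0.000107) above ESCs. The summed level of 8 neuronal markers was 228 to 236 CPM in ESCs, 165 to 178 CPM in EpiLCs, 103 to 133 CPM in D2PGCLCs and 46.0 to 64.0 CPM in D6PGCLCs. The sum was mostly *Tubb3* and *Stmn2*. Its members went different ways, *Tubb3* having 59.4 to 77.4 CPM in EpiLCs, 81.3 to 115 CPM in D2PGCLCs and 21.6 to 33.6 CPM in D6PGCLCs, *Stmn2* 79.6 to 84.95, 11.0 to 18.8 and 18.1 to 31.0 CPM, and *Dcx* at most 4 counts in any sample. *Map2* and *Neurod1* were highest in EpiLCs (means 8.95 and 8.66 CPM, against 3.56 and 0.183 CPM in ESCs), as were *Rbfox3*, *Syt1* and *Snap25*. The part of such cells in the *Elavl2* level was not tested. *Elavl1* differed by -0.14 (SE 0.08, adjusted p = 0.138) between D6PGCLCs and EpiLCs. *Elavl3* had 7.08 to 9.70 CPM in EpiLCs and 1.30 to 3.96 CPM in D6PGCLCs, a fall by 1.84 on the log2 scale (SE 0.45, adjusted p = 0.00194).

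*Tex14* had 45.9, 51.5 and 49.9 CPM in ESCs and 15.3, 24.4 and 23.7 CPM in EpiLCs. It had 114, 96.4 and 112 CPM in D2PGCLCs, 140, 107 and 110 CPM in D4PGCLCs, and 105, 94.8 and 99.1 CPM in D6PGCLCs. It was the only member of the set called lower in any of the 6 comparisons, EpiLCs lying 2.32-fold below ESCs (log2 fold change -1.21, SE 0.14, adjusted p = 7.76e-07). It then rose 5.08-fold to day 2 (2.35, SE 0.14, adjusted p = 1.51e-10), and neither later step passed the test. Relative to ESCs, D6PGCLCs were 2.03-fold higher (1.02, 95% interval 0.74 to 1.31, adjusted p = 4.3e-06), at the edge of the cutoff. This call was lost without ESC replicate 1 (0.97) or without D6PGCLC replicate 1 (0.99986). *Cep55*, whose product TEX14 binds at the midbody to keep bridges open, went the same way at first, with 158 to 168 CPM in ESCs, 41.0 to 49.4 CPM in EpiLCs and 135 to 158 CPM in D2PGCLCs. On day 6 it had 109 to 126 CPM, 1.32 (SE 0.10, adjusted p = 2.23e-09) above EpiLCs on the log2 scale but below ESCs (-0.48, SE 0.10, adjusted p = 0.000377).

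Over the set, a gene was called where its adjusted p was under 0.05 and its log2 fold change exceeded 1 in size, and 9 of the 10 genes passed the filter on low counts. Between EpiLCs and ESCs, 3 were called higher (*Ddx4*, *Rbm46* and *Ddx25*) and 1 lower (*Tex14*), where 14.4% of all 18090 genes tested were higher and 11.9% lower. Between D2PGCLCs and EpiLCs, 3 were higher (*Dazl*, *Rbm46* and *Tex14*) and 0 lower, against 11.0% and 14.4% of all genes. Relative to ESCs, D2PGCLCs had 6 higher (*Dazl*, *Ddx4*, *Rbm46*, *Elavl2*, *Tex14* and *Ddx25*) and 1 lower (*Nanos1*), against 11.7% and 12.7%. D4PGCLCs had 5 higher and 0 lower than ESCs, against 13.9% and 10.9%, and 4 higher and 0 lower than EpiLCs, against 14.0% and 12.8%. *Dazl* alone was called higher from day 2 to day 4, where 2.56% of all genes were, and from day 4 to day 6, where 2.29% were, and no gene of the set was called lower, against 0.376% and 0.785%. From day 2 to day 6 *Dazl* was again the 1 gene called higher, by 3.45 on the log2 scale, and 0 were lower, against 10.9% and 2.75% of all genes. On day 6, those higher than in ESCs were *Dazl*, *Ddx4*, *Rbm46*, *Tex14* and *Ddx25* (5 of 9, against 15.8% of all genes). The first 4 of these were also higher than in EpiLCs (against 15.9%), and 0 were lower than in either group (against 10.3% and 12.0%). Without D6PGCLC replicate 1, 4 were higher than in ESCs, *Tex14* being lost, and 4 higher than in EpiLCs. Of all 18599 genes tested in that fit, 2998 and 2990 were higher. The median log2 fold change of the 9 genes was 1.02 relative to ESCs and 0.58 relative to EpiLCs on day 6, where the medians over all genes tested were -0.0022 and 0.034. At an adjusted p under 0.05 without the fold-change cutoff, 1 gene, *Pum2*, was lower in D6PGCLCs than in EpiLCs. The share of all genes lower on those terms was not computed. Comparisons with a common group share its 3 samples and are not independent of each other. In these bulk samples, fewer cells of a type and less RNA per cell cannot be told apart.

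**Figure D3:**
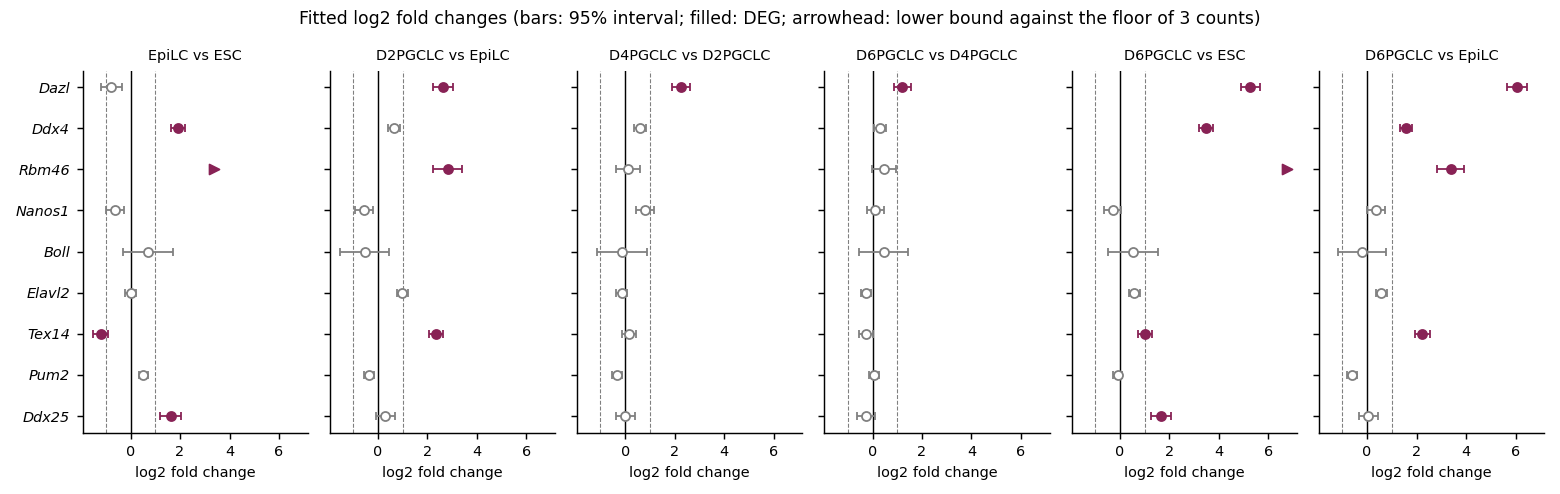
Fitted log2 fold change (x axis) of the 9 tested genes in each of the 6 comparisons, positive where the group named at the left of the title is higher (points, estimate; bars, 95% interval; filled, called; dashed lines, cutoff of 1 in either direction). Arrowheads give lower bounds for *Rbm46*, which had 0 counts in ESCs. *Dazl* is past the cutoff in both comparisons between days of PGCLCs, at 2.25 and 1.20, and no other gene is.

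Levels per kilobase of exon set genes side by side. The length is that of all annotated exons of a gene, not of the transcripts present, so close ranks and ratios between genes depend on it. On this scale, *Pum2* led the set in ESCs (29.6 ± 1.95 CPM per kb, SD, n = 3), EpiLCs (42.4 ± 3.67) and D2PGCLCs (33.2 ± 0.878). *Dazl* ranked 4 in ESCs (2.90 ± 0.438) and 5 in EpiLCs (1.67 ± 0.0362), and led in D4PGCLCs (48.7 ± 11.2) and D6PGCLCs (112 ± 15.4). In D2PGCLCs, *Elavl2* (10.4 ± 0.0461), *Dazl* (10.2 ± 2.50) and *Ddx4* (10.1 ± 0.735) did not differ beyond their spread. On day 6, *Pum2* followed *Dazl* at 27.8 ± 1.66, *Tex14* (19.9 ± 1.06) did not differ from *Ddx4* (SD 2.08) beyond their spread, and *Elavl2* (7.78 ± 0.865), *Rbm46* (4.91 ± 1.39), *Nanos1* (1.53 ± 0.0389), *Ddx25* (1.27 ± 0.234) and *Boll* (0.331 ± 0.106) came after them. The ratio of *Dazl* to *Ddx4* per kilobase was 1.37 to 2.07 in the ESC samples, 0.237 to 0.300 in EpiLCs, 0.746 to 1.20 in D2PGCLCs, 2.67 to 3.53 in D4PGCLCs and 5.49 to 6.39 in D6PGCLCs. The 5 groups did not overlap in it, and *Ddx4* was above *Dazl* in every EpiLC sample and below it in every D4PGCLC and D6PGCLC sample. Together the 10 genes took 0.0313% to 0.0418% of all counts in ESCs and EpiLCs and 0.0858% to 0.100% in D6PGCLCs. *Dazl* made up 1.41% to 1.64% of the set's counts in EpiLCs and 44.6% to 50.7% in D6PGCLCs.

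**Figure D4:**
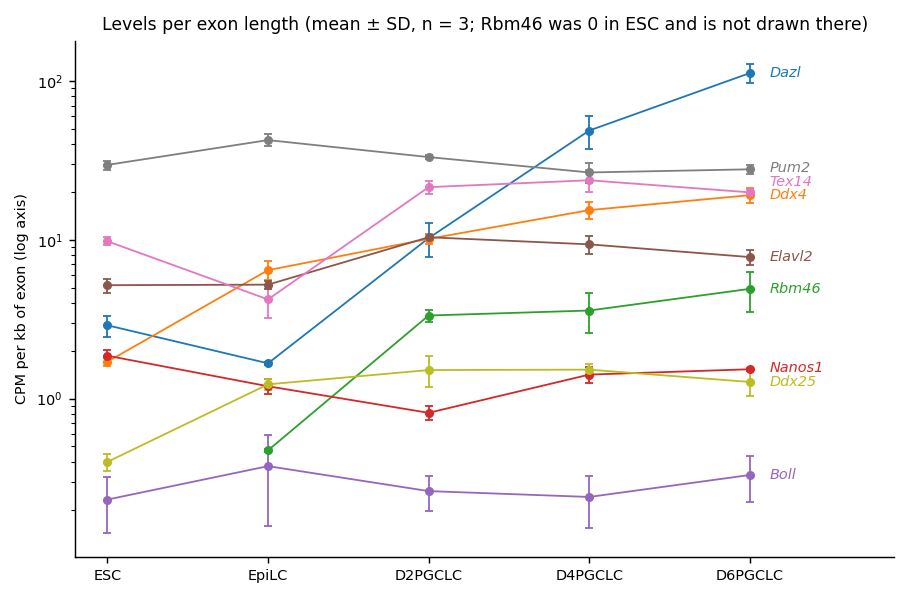
Mean level per exon length of 9 of the genes (y axis, CPM per kb of exon, log axis) over the 5 groups (x axis), with bars for the SD over 3 replicates. *Nanos2* is not drawn, nor *Rbm46* in ESCs, where it had 0 counts. *Dazl* goes from 1.67 CPM per kb in EpiLCs to 48.7 on day 4, above the other 8 genes.

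A list of 28 partner and related genes put the set beside other members of its families, the CCR4-NOT deadenylase, the bridge gene *Cep55* and further RNA-binding proteins. Of these, 27 were tested, and *A1cf* was not, with at most 3 counts in any sample. On day 6, 8 were called higher and 1 lower than in ESCs, against 15.8% and 10.3% of all genes, and 4 were called higher and 3 lower than in EpiLCs, against 15.9% and 12.0%, with 18 and 20 not called. The counts relative to EpiLCs were near those shares. Their median log2 fold changes were -0.085 and -0.032, where all genes had -0.0022 and 0.034. Besides *Nanos3* and *Cep55*, those called higher than in EpiLCs were *Cpeb1* and *Rbm47*. *Cpeb1*, for a protein of cytoplasmic polyadenylation in oocytes, went from 4.07 to 5.62 CPM in EpiLCs to 20.3 to 25.6 CPM in D6PGCLCs (log2 fold change 2.26, SE 0.18, adjusted p = 5.2e-09). *Rbm47*, a relative of *Rbm46*, went from 16.8 to 20.9 CPM to 60.1 to 68.1 CPM (1.72, SE 0.12, adjusted p = 7.78e-10), but had been higher on day 2, at 83.6 to 109 CPM.

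The genes called lower than in EpiLCs were *Elavl3* and both *Lin28* genes, whose products block the maturation of let-7 miRNAs. *Lin28a* fell from 517 to 580 CPM in EpiLCs to 43.8 to 56.5 CPM in D6PGCLCs (log2 fold change -3.46, SE 0.12, adjusted p = 1.58e-13), and was also the gene called lower than in ESCs (-1.72, SE 0.12, adjusted p = 8.88e-10). *Lin28b* fell from 63.4 to 67.7 CPM to 13.3 to 15.4 CPM (-2.22, SE 0.13, adjusted p = 9.49e-11). Replicate 2 had the highest *Lin28a*, *Rbm47* and *Elavl3* of its group on each day of PGCLCs, as it had the lowest *Dazl*. The labels give no batch for it.

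*Rbm44*, *Meioc*, *Sycp3* and *Elavl4* were called higher on day 6 than in ESCs, by 4.29, 3.78, 2.33 and 2.04 on the log2 scale, and higher already in EpiLCs than in ESCs, by 3.42, 3.50, 1.78 and 1.38. *Rbm44* encodes an RNA-binding protein of intercellular bridges and *Sycp3* a protein of the meiotic chromosome axis. None of the 4 was called between D6PGCLCs and EpiLCs. *Sycp3*, like *Meioc*, was called lower on day 2 than in EpiLCs (log2 fold change -1.24, SE 0.20, adjusted p = 4.45e-05). It had 8.48 to 8.81 CPM in EpiLCs, 2.85 to 4.48 CPM on day 2, 4.82 to 6.44 CPM on day 4 and 10.6 to 15.1 CPM on day 6. *Dnd1*, for a partner of NANOS proteins, had 11.8 to 14.4 CPM in EpiLCs, 35.5 to 49.4 CPM on days 2 and 4 and 17.3 to 21.6 CPM in D6PGCLCs, 1.20 (SE 0.14, adjusted p = 7.69e-07) above ESCs on the log2 scale. From day 4 to day 6 *Dnd1* was called lower (log2 fold change -1.26, SE 0.13, adjusted p = 1.44e-05). The 6 CCR4-NOT genes (*Cnot1*, *Cnot2*, *Cnot3*, *Cnot6l*, *Cnot7* and *Cnot8*) had log2 fold changes between -0.51 and 0.19 relative to EpiLCs, and none was called. Both *Nanos3* and *Dnd1* are also among the 5 PGC markers. The summed level of 4 endoderm markers was 9.03 to 16.9 CPM in D6PGCLCs, 5.07 to 6.36 CPM in ESCs and 2.60 to 2.90 CPM in EpiLCs. Most of it on day 6 was *Gata6*, at 5.66 to 14.1 CPM, while *Foxa2* had at most 2 counts there and *Gata4*, at 1.87 to 2.07 CPM, lay below its level in ESCs (3.94 to 5.00 CPM). The part of such cells in the levels on day 6 was not tested.

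**Figure D5:**
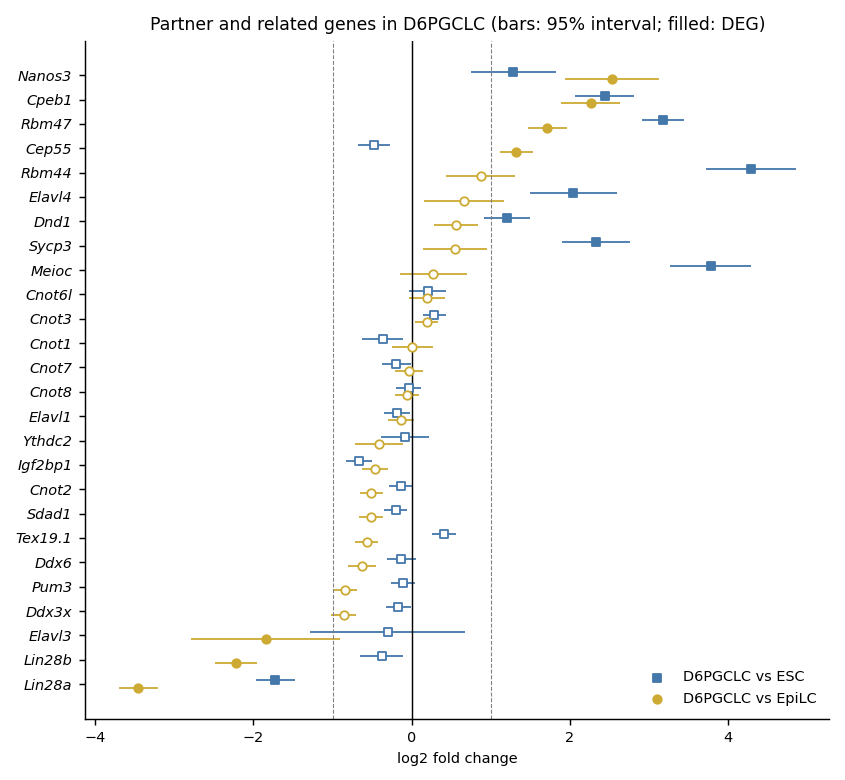
Log2 fold change (x axis) of 26 of the tested partner and related genes in D6PGCLCs relative to ESCs (squares) and to EpiLCs (circles), with 95% intervals and filled symbols for called genes. Most genes, among them the CCR4-NOT genes, lie between the dashed cutoffs, *Nanos3* and *Cpeb1* are highest relative to EpiLCs and *Lin28a* is lowest, at -3.46.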

How the data were processed

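RNA-seq was performed on 15 samples, 3 replicates each of ESCs, EpiLCs, D2PGCLCs, D4PGCLCs and D6PGCLCs. Per the labels and the study's methods, RNA was purified with TRIzol, libraries were made with the NEBNext Ultra II Directional kit, and Trim Galore, FastQC, STAR and the mm10 genome were used with ENSEMBL annotations. Their versions, the counting tool, its strand setting and its treatment of reads shared by related genes are not given in the sources used here. The authors deposited raw counts per gene, without normalization, for 55536 genes, all of which matched GENCODE M21 (symbols, coordinates, exon lengths). Counts are not of molecules with identifiers, so floors cover counting error only.

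Levels are CPM on TMM-normalized library sizes. Differential expression was tested with the quasi-likelihood test of edgeR 4.0.16 (R 4.3.3) in 1 fit of all 15 samples, after filterByExpr with a minimum of 10 counts, with Benjamini-Hochberg adjustment over the 18090 genes tested. SEs and 95% intervals come from this fit. Calls and SEs were checked on simulated data for D6PGCLC against ESC, and the coverage of the intervals was not. Where a group had at most 3 counts in each sample, the fold is a lower bound from 3 counts per sample. The study's methods name DESeq2, which was an alternative (version 1.42.0). Other alternatives were DESeq2's size factors, no filter, the replicate number as a block, the 2 groups compared alone, no fold-change cutoff and each sample left out. The 6 comparisons were those between consecutive groups and of D6PGCLC with ESC and EpiLC, and the 4 others between groups are given where they bear on an order. Replicates differed by a chi-square of 8.82 to 44.6 per gene over 15 pairs, so they were not taken as copies of 1 library, and each counted as 1. This does not show that they were separate cultures or inductions.

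The members, the partner and marker lists and the motifs were chosen with earlier results of these data known. Named were all 10 members, the partner genes called in D6PGCLC against EpiLC with the 3 highest and 3 lowest log2 fold changes, those given for a known role beside a member, and the 5 genes most like *Dazl* and *Ddx4*. *Cep55* and *Dnd1* are named for their role. Promoters came from RefSeq (GRCm38.p6). Protein sequences were not used here. The values of 1 partner gene are not reported here.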

Additional observations from a re-analysis of the deposited data

How the results depend on the processing

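Without the fold-change cutoff, the members called lower in EpiLCs than in ESCs went from 1 to 3, those called higher in D2PGCLCs than in EpiLCs from 3 to 5 and lower from 0 to 2, those higher in D4PGCLCs than in D2PGCLCs from 1 to 3 and lower from 0 to 1, and those lower in D6PGCLCs than in EpiLCs from 0 to 1. The partner genes called on day 6 then went from 1 to 6 lower than in ESCs, and from 4 to 9 higher and 3 to 11 lower than in EpiLCs, since more small changes count. The shares of all genes called without the cutoff were not computed, so these counts cannot be set against them. DESeq2, DESeq2's size factors, no filter and 2 groups alone moved no count by over 1.5 times. The main fit did not take the replicate numbers to pair samples. Deviations from the group means correlated by 0.0703 on average over 30 pairs with the same number (-0.184 to 0.358, 8 over 0.1). Over 60 others they correlated by -0.0352 (-0.401 to 0.259, 4 over 0.1). Deviations within a group cancel out, so the second average largely follows from the first. These averages do not settle whether the numbers pair samples, and replicate 2 stood apart in several genes on each day of PGCLCs. Under a replicate block, the members called higher stayed at 3 in EpiLCs against ESCs and 5 in D6PGCLCs against ESCs, and no other count changed. Of all 18090 genes tested, 2580 and 2822 were called higher there. The log2 fold change of *Ddx25* from day 2 to day 4 changed sign around 0, to -0.0043 with DESeq2, -0.0040 with its size factors and -0.015 with 2 groups alone (cause not tested). With single samples left out, it ranged from -0.16 to 0.14, that of *Ddx25* in D6PGCLCs against EpiLCs from -0.069 to 0.19, *Boll* from -0.43 to 0.10 (day 4 against 2) and -0.54 to 0.33 (day 6 against EpiLCs), *Elavl2* from -0.071 to 0.083 (EpiLCs against ESCs) and 0.96 to 1.04 (day 2 against EpiLCs), *Pum2* from -0.035 to 0.17 (day 6 against 4), *Rbm46* from -0.10 to 0.30 (day 4 against 2) and *Tex14* from 0.97 to 1.06 (day 6 against ESCs). Of the 270 other values for single genes under full-sample alternatives 266 kept direction and call, and of 810 with a sample left out 794 did. Depth limits *Boll* and *Nanos2*, with at most 64 and 3 counts.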

Other observations

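The genes whose pattern over the 15 samples was most like that of *Dazl* were sought among 9174 tested genes with a mean of at least 10 CPM, by the root mean square difference of log2(CPM + 1) after centring each gene on its mean. They were *Esx1* (difference 0.77), *Rgcc* (0.86), *8030474K03Rik* (0.95), *Pdk4* (0.99) and *Pde3a* (1.00). *Esx1*, a homeobox gene of the X chromosome known from placenta and testis, had a mean of 1.18 CPM in ESCs, 1.72 CPM in EpiLCs, 12.3 CPM in D2PGCLCs, 22.5 CPM in D4PGCLCs and 47.4 CPM in D6PGCLCs. *Pdk4*, for a kinase that inhibits pyruvate dehydrogenase, had 1.46, 2.06, 12.1, 19.9 and 28.1 CPM in the same order. Each of the 5 differed from *Dazl* by more than any of the 5 nearest genes of *Ddx4* differed from *Ddx4*. The difference is not scaled by how far a gene ranges, and *Dazl* ranged further than *Ddx4*. Unlike *Dazl*, the genes *Esx1*, *8030474K03Rik*, *Pdk4* and *Pde3a* had higher means in EpiLCs than in ESCs, at low levels, and *Rgcc* did not.

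The genes most like *Ddx4* were *Zcwpw1* (0.19), *Stox2* (0.23), *Micu2* (0.24), *Xk* (0.24) and *Akap11* (0.25). *Zcwpw1*, for a reader of histone methylation known from meiotic recombination, had a mean of 2.70 CPM in ESCs, 14.1 CPM in EpiLCs, 19.7 CPM in D2PGCLCs, 34.1 CPM in D4PGCLCs and 32.3 CPM in D6PGCLCs. *Akap11*, for an anchoring protein of protein kinase A, had 15.0, 48.6, 90.8, 96.6 and 116 CPM. These likenesses are descriptions, with no test.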
